A study of Mus musculus with 12 samples.

Results

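The genes described here are 42 genes of the phosphoinositide 3-kinase (PI3K), AKT, mTOR and FoxO pathway in the developing upper face of the mouse. They were chosen by symbol from a list drawn up with earlier results of these data known, and all 42 were found among the 53392 gene rows of the deposited tables. They comprised 9 genes of PI3K and its regulators, 7 of AKT and its substrates and regulators, 12 of mTOR signalling, the 4 FoxO transcription factor genes and 10 known FoxO target genes. RNA was sequenced from 12 libraries in 4 groups of 3, all from embryos on a 129S4 background. Palatal shelves at embryonic stage E13.5 came from wild-type Pdgfra+/+ embryos and from embryos homozygous for the PI3K allele (PdgfraPI3K/PI3K). That allele is a knock-in at the locus of the receptor tyrosine kinase PDGFRα, present in every cell of the embryo, and the receptor it encodes is known to be unable to recruit PI3K. Maxillary processes, from which the palatal shelves later grow, were taken at E11.5 from embryos whose Srsf3 alleles were both floxed. Controls (Srsf3fl/fl;Wnt1-Cre+/+) lacked the Cre transgene and the other group (Srsf3fl/fl;Wnt1-Cre+/Tg) carried it. Wnt1-Cre acts in neural crest cells and their descendants, so cells of other origin keep the gene, and Srsf3 encodes a splicing factor. The labels give mesenchyme as the tissue, after removal of the ectoderm with trypsin.

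PI3K is recruited to activated receptor tyrosine kinases by its regulatory subunits and makes the membrane lipid that brings AKT to its activating kinase, PDPK1. AKT phosphorylates FoxO factors, which keeps them out of the nucleus and away from their target genes, and it relieves the TSC1-TSC2 brake on mTOR complex 1, a kinase complex that also reads amino acids through the Rag GTPases. Much of this signalling runs through phosphorylation, which RNA levels do not measure. In the facial mesenchyme, PI3K is known as a main effector of PDGFRα.

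Library totals ranged from 30509338 to 37406960 estimated counts in the palatal shelf and from 15932541 to 27887654 estimated counts in the maxillary process. Srsf3 did not separate the maxillary groups, with 597, 578 and 547 CPM (normalised counts scaled to library size) in the controls and 468, 669 and 622 CPM in the other group, so that group is called here the libraries labelled Srsf3 cKO. Gene totals can include transcripts of a deleted allele. Pdgfra, the altered locus of the palatal groups, did not separate them by count (log2 fold change 0.02), but its TPM did not overlap (139.8, 130.3 and 144.5 in wild-type against 186.0, 200.5 and 243.1 in PI3K libraries). Its effective transcript length, defined further on, was lower in PI3K libraries (log2 change -0.58, SE 0.02, adjusted p 0.00213 by limma). Mesenchyme markers (Prrx1, Prrx2, Twist1, Msx1, Osr2 and Col1a1) were present in every library, with summed levels from 947 to 3387 TPM (a level per transcript length). Summed ectoderm markers were 257 to 524 TPM in the palatal shelf and 1.66 to 11.9 TPM in the maxillary process. Of the 42 genes, 25 overlap another annotated gene, 13 of them on the same strand, and whether strand was used in counting is not given in the sources used here. In bulk tissue, fewer cells of a type and less RNA per cell cannot be told apart.

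The promoters of the members whose values carry the results are printed from RefSeq (build GRCm38.p6), each from 250 bases before to 50 bases after a transcription start, 5′ to 3′ on the gene's strand. Capitals mark a match to the FoxO element TGTTTAC or to the hypoxia element core ACGTG, searched on either strand. Rragd was the member with the smallest p in both genotype comparisons, Ddit4 and Txnip had the most extreme values in single libraries, Bcl2l11 had groups that did not overlap, and Pik3r1 has a pair of listed starts that bear on the length of its transcripts.
Rragd, chr4:32982748-32983047, plus strand: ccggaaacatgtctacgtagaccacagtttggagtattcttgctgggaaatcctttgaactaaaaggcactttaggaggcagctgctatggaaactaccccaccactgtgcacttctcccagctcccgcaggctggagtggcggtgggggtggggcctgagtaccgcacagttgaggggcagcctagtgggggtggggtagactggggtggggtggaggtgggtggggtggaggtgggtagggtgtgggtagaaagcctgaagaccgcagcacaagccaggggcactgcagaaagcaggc
Ddit4, chr10:59951721-59952020, minus strand: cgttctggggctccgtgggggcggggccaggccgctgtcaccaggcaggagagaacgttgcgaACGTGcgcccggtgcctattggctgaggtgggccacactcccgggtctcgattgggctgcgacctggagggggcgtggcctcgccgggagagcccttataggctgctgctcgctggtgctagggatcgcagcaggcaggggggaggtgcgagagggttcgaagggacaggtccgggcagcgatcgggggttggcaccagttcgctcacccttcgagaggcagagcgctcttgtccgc
Txnip, chr3:96557707-96558006, plus strand: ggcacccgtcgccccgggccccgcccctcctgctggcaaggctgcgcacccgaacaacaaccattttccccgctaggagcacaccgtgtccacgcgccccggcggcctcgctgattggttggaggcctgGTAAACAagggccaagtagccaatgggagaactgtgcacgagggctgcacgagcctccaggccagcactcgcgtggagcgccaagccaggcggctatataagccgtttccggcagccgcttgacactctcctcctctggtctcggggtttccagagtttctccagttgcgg
Bcl2l11 upstream start, chr2:128125788-128126087, plus strand: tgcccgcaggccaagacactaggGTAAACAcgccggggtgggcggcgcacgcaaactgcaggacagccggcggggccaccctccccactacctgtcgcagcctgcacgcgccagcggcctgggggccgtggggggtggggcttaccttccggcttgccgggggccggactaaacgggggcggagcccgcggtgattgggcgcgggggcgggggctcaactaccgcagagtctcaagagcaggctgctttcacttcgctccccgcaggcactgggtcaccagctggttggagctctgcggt
Pik3r1 upstream start, chr13:101768168-101768467, minus strand: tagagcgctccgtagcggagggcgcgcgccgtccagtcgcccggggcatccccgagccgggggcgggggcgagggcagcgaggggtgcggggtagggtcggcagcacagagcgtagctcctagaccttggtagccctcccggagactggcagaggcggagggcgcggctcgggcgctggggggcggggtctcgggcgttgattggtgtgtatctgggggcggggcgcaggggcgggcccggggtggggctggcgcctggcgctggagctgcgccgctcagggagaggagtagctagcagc
Pik3r1 downstream start, chr13:101692581-101692880, minus strand: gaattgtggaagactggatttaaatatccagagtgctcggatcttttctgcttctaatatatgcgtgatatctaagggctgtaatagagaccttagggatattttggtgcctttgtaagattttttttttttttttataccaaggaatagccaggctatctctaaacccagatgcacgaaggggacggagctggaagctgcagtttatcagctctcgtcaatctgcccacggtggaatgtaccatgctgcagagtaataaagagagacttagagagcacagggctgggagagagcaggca

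Promoters were listed for 38 of the 42 members, 49 promoters in all, and Foxo4, Foxo6, Fbxo32 and Eif4ebp1 had none. The FoxO element was in 3.65% of the 32851 promoters of the table and in those of Txnip, Bcl2l11 and Akt1 among the members. In the Txnip and Bcl2l11 windows it lies on the opposite strand, its first printed base 121 and 227 bases before the start. The downstream start listed for Bcl2l11, not printed here, held no FoxO element. ACGTG was in 19.6% of all promoters and in those of 12 members, among them Ddit4, where it lies 187 bases before the start. In 7 of those 12 it sat inside the E-box CACGTG (7.15% of all promoters), carried among others by Irs1, Irs2 and Cited2, which always contains ACGTG. The Rragd window held none of these 3 motifs. A match is a description of the letters and not a shown binding site.

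Levels per transcript length set the members in order. In the wild-type palatal shelf Akt1, the widely expressed AKT kinase, stood at 302 ± 20.9 TPM (SD, n = 3) and Akt2, the form linked to insulin action, at 106 ± 8.59 TPM. Among the PI3K subunits the regulatory gene Pik3r2 had 104 ± 6.35 TPM, Pik3r1 47.9 ± 4.58 TPM and Pik3r3 40.4 ± 6.65 TPM. The ranges of Pik3r1 and Pik3r3 came next to each other without overlap (44.6 to 53.1 and 32.7 to 44.4 TPM). The catalytic gene Pik3ca had 23.4 ± 0.563 TPM and Pik3cb 2.56 ± 0.459 TPM. Of the Rag GTPases, Rraga had 90.4 ± 1.51 TPM, Rragc 45.8 ± 1.15 TPM and Rragd, the partner of RagA or RagB that can take the place of RagC, 2.97 ± 0.585 TPM. Foxo3 and Foxo4 overlapped in level (35.6 to 41.3 and 35.1 to 46.2 TPM), Foxo1 lay below them at 8.71 to 13.6 TPM and Foxo6 below that at 1.89 to 2.53 TPM.

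The palatal shelf comparison asks what the loss of PI3K recruitment by PDGFRα does to the pathway's own genes. None of the 42 members passed the FDR threshold of 0.05 (edgeR quasi-likelihood test with Benjamini-Hochberg adjustment), and neither did any of the 16525 genes tested (0%). At an unadjusted p under 0.05 there was 1 member, Rragd, where 2.14% of all genes were, and DESeq2 also called that member alone. The median log2 fold change of the members was 0.08 (29 higher and 13 lower) against -0.01 for all genes. Without PI3K library 2 the member median was 0.01, with 23 higher and 19 lower. Groups of 3 against 3 did not overlap in 2 members, Rragd and Bcl2l11, and in 6.23% of all genes. The design text calls the samples biological replicates but does not say whether each was 1 embryo, so p-values measure the spread between these samples.

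Rragd encodes a GTPase that recruits mTOR complex 1 to the lysosome when amino acids are present, and its transcription is known to be driven by the MiT/TFE factors. The gene (ENSMUSG00000028278.14, protein-coding) spans bases 32983037 to 33022180 on the plus strand of chromosome 4 (GRCm38, the same build as mm10). It measured 8.28, 10.2 and 6.82 CPM in the wild-type libraries and 15.4, 16.8 and 15.2 CPM in the PI3K libraries. The lowest PI3K library thus lay above the highest wild-type library. The log2 fold change was 0.90 (standard error, SE, 0.17, 95% interval 0.50 to 1.31), and its p ranked 2 among 16525 genes, with an adjusted p of 0.9997 by edgeR. With DESeq2 the adjusted p was 0.0266. On the TPM scale the levels were 2.89, 3.60 and 2.44 in wild-type and 5.39, 5.80 and 5.48 in PI3K libraries, and leaving out any 1 library kept the log2 fold change between 0.78 and 1.07. Of the other Rag genes neither passed the test, with log2 fold changes of -0.09 for Rraga (95% interval -0.30 to 0.13) and 0.07 for Rragc (-0.12 to 0.25).

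**Figure D1:**
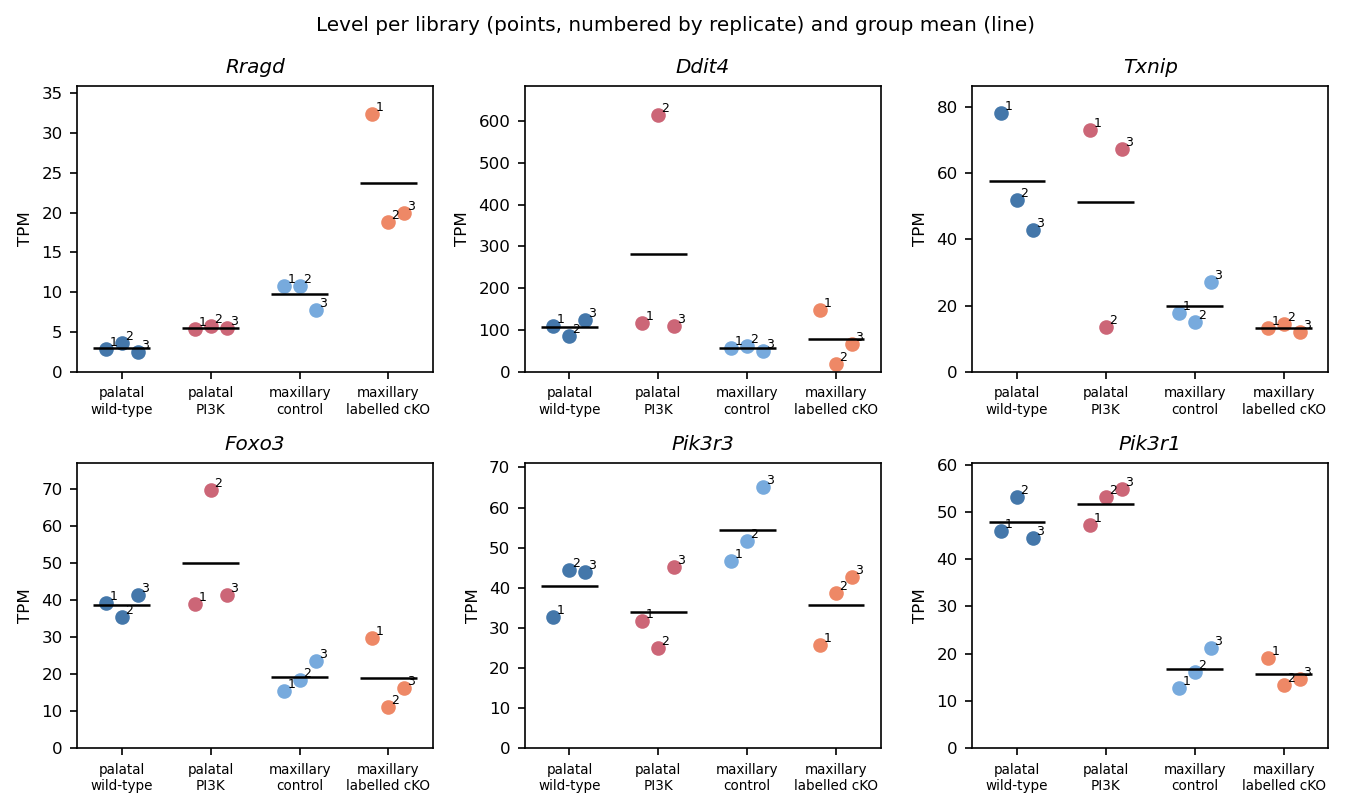
Level in TPM (vertical axes, starting at 0) of 6 members in each library of the 4 groups, with points numbered by replicate and lines at group means. Rragd lies higher in all 3 PI3K libraries than in wild-type (5.39 to 5.80 against 2.44 to 3.60 TPM) and in all 3 libraries labelled Srsf3 cKO than in controls, while Ddit4, Txnip and Foxo3 in the PI3K group are set apart by library 2.

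PI3K library 2 stood apart in several members. Ddit4 encodes REDD1, an inhibitor of mTOR complex 1 that is induced by low oxygen and other stress. It had 103, 79.0 and 113 CPM in the wild-type libraries, 108 and 99.2 CPM in PI3K libraries 1 and 3, and 579 CPM in PI3K library 2. The group difference (log2 fold change 1.41, SE 0.66, 95% interval -0.15 to 2.98, adjusted p 0.9997 by edgeR) was 0.08 without that library. The same library was the highest of the 6 for Foxo3 with 251 CPM (others 121 to 146), for the cyclin G2 gene Ccng2 with 99.5 CPM (others 44.9 to 59.0) and for the cell cycle inhibitor Cdkn1b with 126 CPM (others 65.9 to 85.2). It was also the highest for Phlpp1, a phosphatase of AKT, with 55.9 CPM against 30.2 to 33.6 in the others. Without it the log2 fold changes of Foxo3, Ccng2 and Cdkn1b were 0.05, 0.06 and 0.08. Txnip, which encodes an inhibitor of glucose uptake and thioredoxin, went the other way, with 20.7 CPM in PI3K library 2 and 65.1 to 122 CPM elsewhere, and its log2 fold change of -0.20 became 0.25 without that library. These genes were singled out after their values were seen. Cited2 and Gadd45a did not stand apart in PI3K library 2, with 61.4 and 12.9 TPM (others 50.4 to 72.7 and 8.75 to 17.2 TPM).

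PI3K library 2 held the highest of the 6 values in 20 of the 42 members (47.6%), where it did so in 25.9% of all genes. A list of 8 hypoxia response genes (Vegfa, Pgk1, Ldha, Egln3, Slc2a1, Pdk1, Ankrd37 and Bnip3), added after this library was noticed, summed to 3075 TPM in it and to 829 to 1502 TPM in the other 5 palatal libraries. Skeletal muscle markers did not follow this library, with sums of 4.597 to 53.9 TPM in wild-type and 36.1 to 200.2 TPM in PI3K libraries (5 of 5 higher, 0 past the FDR threshold with edgeR and 1 at an unadjusted p under 0.05, Myod1 listed at 0 in wild-type library 3). The part of either in the member values was not tested. For Rragd, the log2 fold change without PI3K library 2 was 0.86.

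Bcl2l11 encodes the pro-apoptotic protein BIM, a textbook FoxO target. It measured 29.5, 26.1 and 25.9 CPM in wild-type and 30.7, 30.4 and 32.6 CPM in PI3K libraries, groups that did not overlap but lay close together. Its log2 fold change was 0.20 (SE 0.10, 95% interval -0.03 to 0.43, adjusted p 0.9997 by edgeR). Pik3r2 was at 166, 167 and 179 CPM in wild-type and 171, 111 and 141 CPM in PI3K libraries, so the groups overlapped. Its log2 fold change was -0.27 (SE 0.15, 95% interval -0.62 to 0.08, adjusted p 0.9997 by edgeR) and was -0.13 without PI3K library 2.

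By role, 4 of the 9 PI3K genes lay above 0 and 5 below, from -0.31 (Pik3r3) to 0.24 (Inpp4b, a lipid phosphatase that opposes AKT). The 7 AKT genes ran from -0.11 (Akt1s1) to 0.34 (Phlpp1). Of the 12 mTOR genes 10 were above 0, and all 4 FoxO genes were, at 0.10 (Foxo1), 0.37 (Foxo3), 0.11 (Foxo4) and 0.50 (Foxo6). The groups overlapped in all 4 FoxO genes. Over all genes 7935 of 16525 were above 0, and without PI3K library 2 the members were 23 higher and 19 lower. Of the 10 FoxO targets 7 were above 0, with a median of 0.10. The kinase genes had narrow 95% intervals around 0, of -0.29 to 0.14 for Akt1, -0.16 to 0.26 for Akt2 and -0.21 to 0.30 for Mtor.

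**Figure D2:**
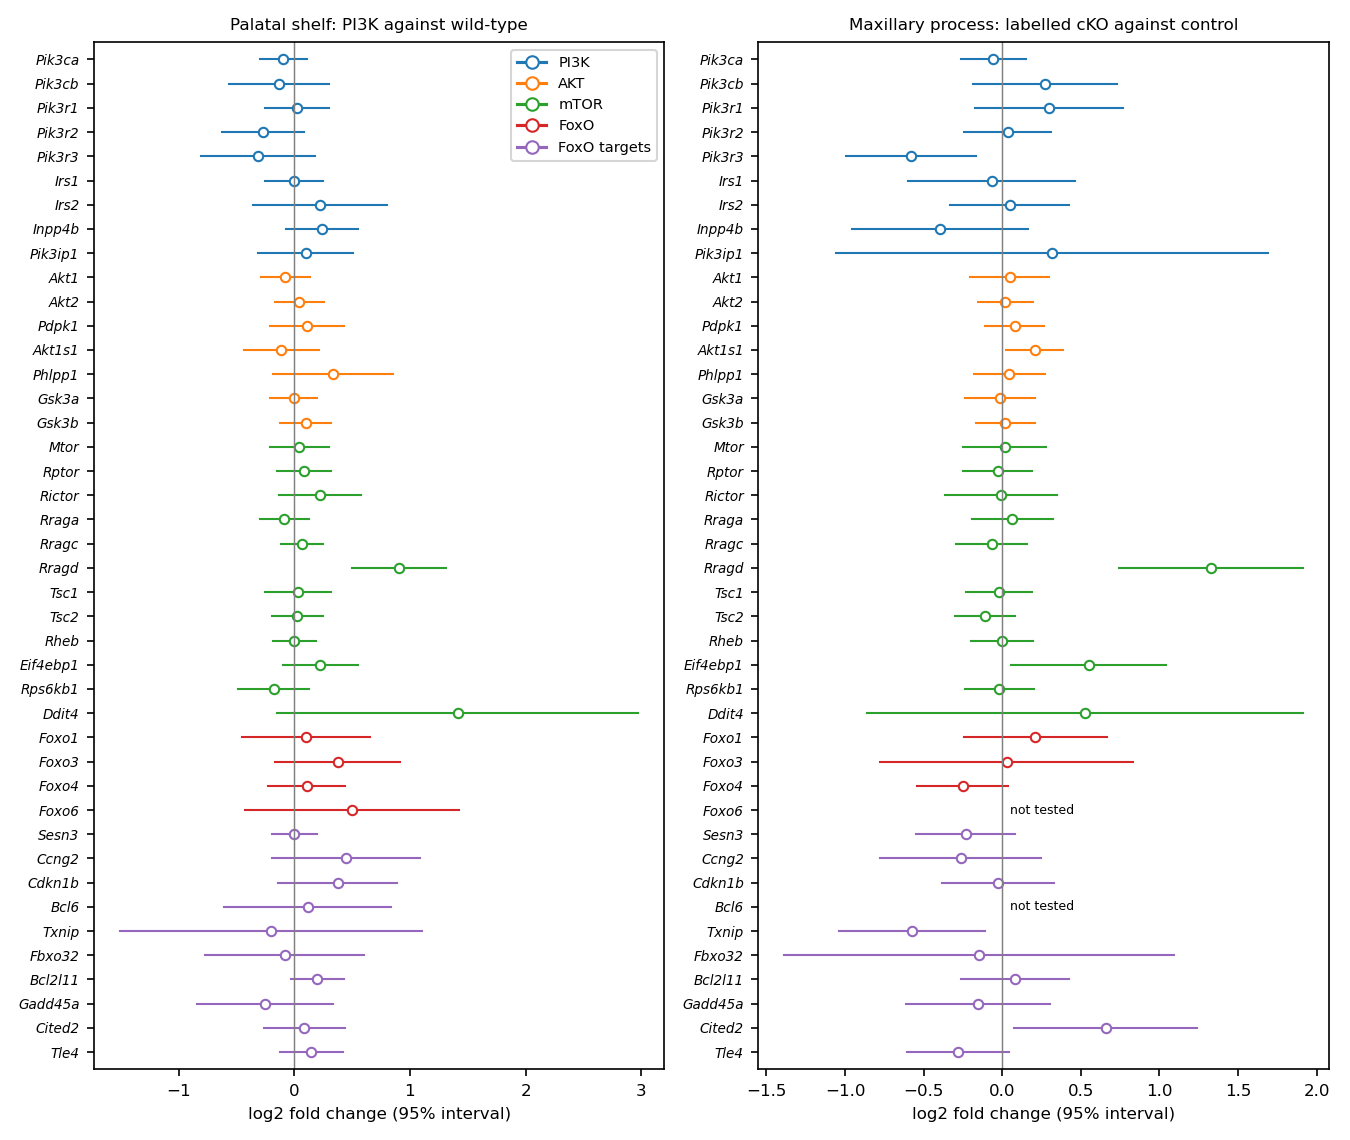
Log2 fold change (horizontal axes) of each member with its 95% interval, in the palatal shelf (left, PI3K against wild-type) and the maxillary process (right, libraries labelled Srsf3 cKO against control), coloured by role. No member passed the FDR threshold in either panel, so all points are open, and Rragd lies farthest from 0 relative to its interval in each (0.90 and 1.33).

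The maxillary process comparison asks how the pathway's genes stand when Srsf3 is targeted in the neural crest. Here 40 members were tested, Foxo6 and Bcl6 having too few counts, and none passed the FDR threshold with edgeR, where 0.0842% of the 14254 genes tested did (12 genes). At an unadjusted p under 0.05 there were 6 members (Rragd, Pik3r3, Txnip, Akt1s1, Cited2 and Eif4ebp1), where 12.2% of all genes were. The groups did not overlap in 5 members, where 18.1% of all genes did not. Both shares are near the background. The member median was 0.01 with 20 higher and 20 lower, against 0.00 for all genes.

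Rragd again had the smallest p. It measured 32.6, 32.6 and 21.9 CPM in controls against 99.9, 57.9 and 60.6 CPM in those labelled Srsf3 cKO, where library 1 was the highest. The log2 fold change was 1.33 (SE 0.25, 95% interval 0.74 to 1.91, adjusted p 0.140 by edgeR), and the gene ranked 90 among 14254. It passed the threshold with DESeq2 (adjusted p 3.1e-05), in an edgeR fit of all 12 libraries together (0.0261) and without a filter on low counts (0.0114). The log2 fold change was 1.03 when library 1 labelled Srsf3 cKO was left out. Rraga and Rragc did not pass in this tissue either, at 0.06 (95% interval -0.19 to 0.32) and -0.07 (-0.29 to 0.16).

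Pik3r3 encodes a PI3K regulatory subunit abundant in embryonic and neural tissue. It had 95.1, 109.9 and 129 CPM in controls against 56.6, 82.2 and 84.8 CPM in those labelled Srsf3 cKO, with no overlap. Its log2 fold change was -0.58 (SE 0.18, 95% interval -0.996 to -0.16, adjusted p 0.306 by edgeR). The predicted gene Gm49337 overlaps it on the same strand, so reads could be split between them. Summed neuron and glia markers were 43.1 to 155 TPM in the controls and 32.6 to 45.8 TPM in the other group (0 of the 4 tested past the FDR threshold, Elavl3 listed at 0 in library 3 labelled Srsf3 cKO), and their part was not tested.

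Txnip had 29.1, 23.6 and 41.0 CPM in controls against 21.5, 21.8 and 19.7 CPM in those labelled Srsf3 cKO, where the spread was small. Its log2 fold change was -0.57 (SE 0.20, 95% interval -1.04 to -0.11, adjusted p 0.350 by edgeR), and it was -0.32 without control library 3. Akt1s1 encodes PRAS40, an AKT substrate that restrains mTOR complex 1. It had 74.6, 78.2 and 72.5 CPM against 83.6, 88.7 and 87.5 CPM, a log2 fold change of 0.21 (SE 0.08, 95% interval 0.02 to 0.39, adjusted p 0.379 by edgeR), and Tbc1d17 overlaps it on the opposite strand.

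Cited2, a transcriptional co-regulator induced by low oxygen and by FoxO, had 54.0, 54.6 and 39.4 CPM in controls against 108, 68.5 and 56.4 CPM in those labelled Srsf3 cKO. The groups did not overlap, yet the log2 fold change of 0.66 was 0.34 without library 1 labelled Srsf3 cKO. Eif4ebp1, the translation repressor that mTOR complex 1 inactivates, overlapped between groups, with 42.2, 42.001 and 28.3 CPM against 63.4, 59.9 and 41.1 CPM (log2 fold change 0.55).

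Library 1 labelled Srsf3 cKO stood apart in Ddit4, with 147 CPM against 19.3 and 64.9 CPM in libraries 2 and 3 and 45.3 to 59.1 CPM in the controls. Foxo3 followed the same order over these libraries, with 115, 42.5 and 59.3 CPM against 57.6 to 86.2 CPM in the controls. The hypoxia response genes summed to 3401, 1291 and 1957 TPM in those 3 libraries and to 795 to 1291 TPM in the controls. In that comparison all 8 had positive log2 fold changes, and 0 passed the FDR threshold with edgeR and 7 an unadjusted p under 0.05. Endothelial markers summed to 318, 179.6 and 161 TPM against 121 to 131 TPM, with 5 of 5 not overlapping, 0 past the threshold and 5 at an unadjusted p under 0.05. Mesenchyme markers summed to 947, 1587 and 1773 TPM against 1848 to 2465 TPM, with 6 of 6 log2 fold changes negative, 3 not overlapping, 0 past the threshold and 2 at an unadjusted p under 0.05. Red blood cell markers summed to 33204 TPM in library 1 against 11498 to 19406 TPM in the other 5 (6 of 6 log2 fold changes positive, 0 past the threshold). Macrophage markers summed to 12.8 to 20.3 against 8.65 to 11.48 TPM in the controls and ectoderm markers to 6.85 to 11.9 against 1.66 to 5.99 TPM, with all 5 tested in each list positive, 0 past the threshold and 2 in each at an unadjusted p under 0.05. Library 1 thus held the highest hypoxia, endothelial and red blood cell sums and the lowest mesenchyme sum of the 6 as well as the highest Rragd, Cited2 and Ddit4, and the part of these cells and genes in the member values was not tested.

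**Figure D3:**
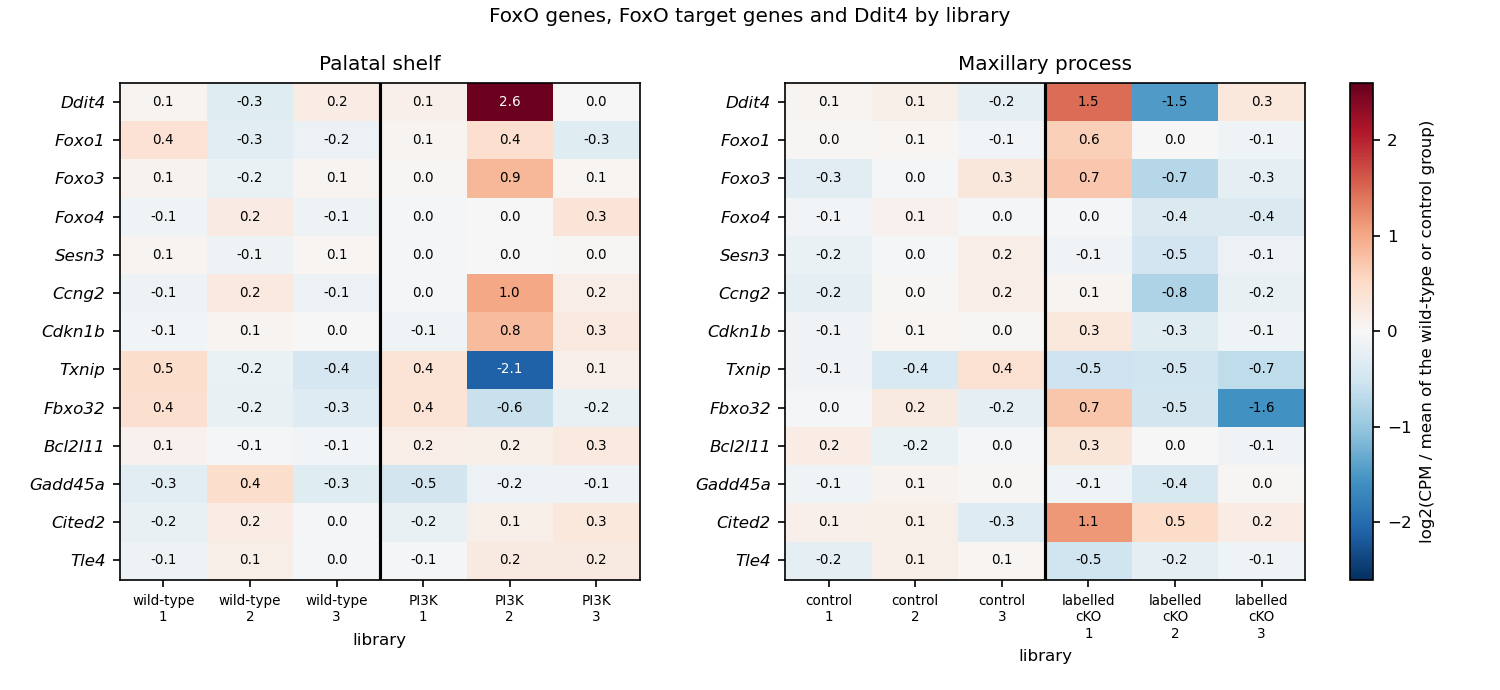
Colour and number give log2 of each library's CPM over the mean of the wild-type (left) or control (right) group, for Ddit4, the FoxO genes and their targets tested in both tissues (Foxo6 and Bcl6 are left out). PI3K library 2 carries the extreme values of Ddit4 and Txnip (579 and 20.7 CPM), and library 1 labelled Srsf3 cKO the high value of Ddit4 (147 CPM).

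By role, the 7 AKT genes of the maxillary process stayed between -0.02 (Gsk3a) and 0.21 (Akt1s1). The 12 mTOR genes had a median of -0.00, and apart from Rragd, Eif4ebp1 and Ddit4 they lay between -0.11 (Tsc2) and 0.06 (Rraga). Of the 9 FoxO targets tested 7 were below 0, with a median of -0.15, where the palatal median was 0.10. The difference between these medians was not tested. Foxo1 and Foxo3 were at 0.21 (95% interval -0.25 to 0.67) and 0.03 (-0.78 to 0.83).

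Srsf3 acts on splicing, so the effective transcript length of each member was examined, taken as the estimated count divided by TPM and expressed relative to the median gene of the library. It moves when the mix of longer and shorter transcripts of a gene moves. Of the 38 members measured in the maxillary process none passed the FDR threshold (limma), where 0.00909% of the 11002 genes did, and 1 had an unadjusted p under 0.05, where 5.13% of all genes did. That member was Pik3r1, a PI3K regulatory subunit gene known to give a long form and shorter ones from different starts. RefSeq lists its upstream and downstream starts 75.6 kb apart. Its relative length was 2.19, 2.10 and 2.11 in controls against 2.82, 2.66 and 2.56 in those labelled Srsf3 cKO. The groups were well apart, with a log2 change of 0.33 (SE 0.04, 95% interval 0.22 to 0.44, rank 7 of 11002, adjusted p 0.566 by limma). The change ran from 0.29 to 0.36 when any 1 library was left out. Lengths of some other members did not overlap either, among them Inpp4b, whose change was larger and more variable. It was 0.46 (SE 0.19, 95% interval -0.04 to 0.97, adjusted p 0.872 by limma). The gene totals do not tell which transcripts were involved.

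The shift also set the scales of Pik3r1 apart. Counts gave 42.1, 51.6 and 62.8 CPM in controls against 81.8, 54.2 and 56.5 CPM in those labelled Srsf3 cKO (log2 fold change 0.30), whereas TPM gave 12.8, 16.2 and 21.2 against 19.1, 13.3 and 14.6. In the palatal shelf the relative length of Pik3r1 was 2.49, 2.77 and 2.67 in wild-type and 2.498, 2.37 and 2.62 in PI3K libraries, which overlap. There 42 members were measured and none passed, where 0.00775% of 12907 genes did, a single gene that was Pdgfra itself. The 1 member with an unadjusted p under 0.05 (3.89% of all genes) was Akt2, at 1.04, 1.058 and 1.05 in wild-type and 1.103, 1.097 and 1.09 in PI3K libraries (log2 change 0.06, SE 0.01, adjusted p 0.998 by limma).

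**Figure D4:**
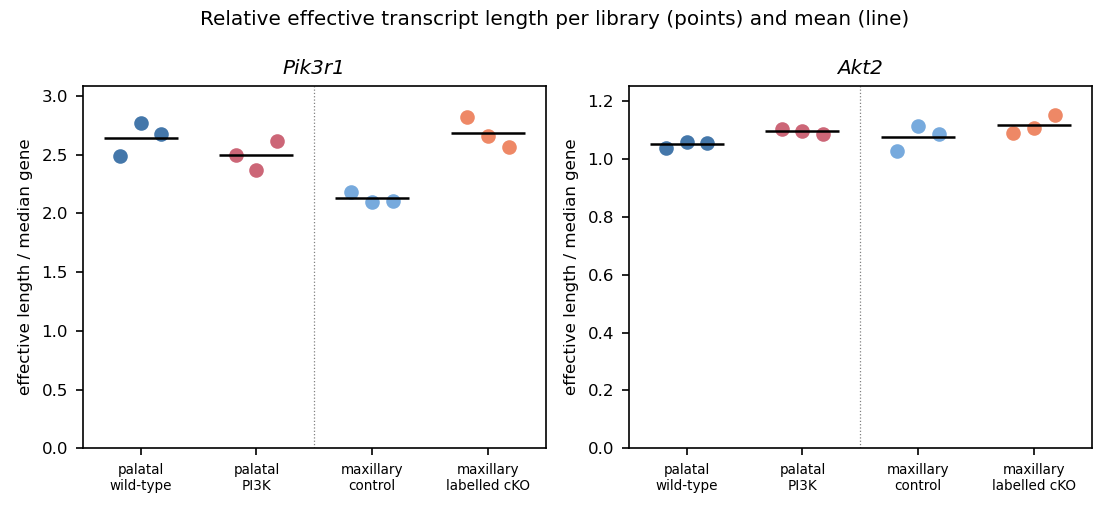
Effective transcript length relative to the library's median gene (vertical axes, starting at 0) of Pik3r1 and Akt2, with 1 point per library and lines at group means. Pik3r1 separates the libraries labelled Srsf3 cKO (2.56 to 2.82) from the controls (2.10 to 2.19), and Akt2 differs by 0.06 on the log2 scale in the palatal shelf.

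The wild-type palatal shelf was set against the control maxillary process to place the members between the tissues. Tissue, stage, genotype at the Srsf3 locus and sequencing lane differ together here and cannot be told apart, and the tissues were deposited in separate tables. The libraries are those that serve as controls above. In this comparison 22 of the 42 members passed the FDR threshold (13 higher and 9 lower in the palatal shelf), where 50.6% of the 15752 genes tested did (27.1% higher and 23.4% lower). The member share was thus near the background, and the median of 0.04 was near that of all genes, 0.03. On the log2(TPM + 1) scale, where the median of all genes shifted to 0.16, limma called 17 members higher and 1, Rragd, lower, and 69.0% of all its calls were higher against 53.7% in the main test. The 13 higher calls were made on either scale, and of the 9 lower calls only Rragd was. Foxo6 and Bcl6, among the 13 higher, passed the count filter through the palatal libraries. Less the shift of the median gene, the TPM scale put Pik3r3 at -0.58, Rptor at -0.44, Mtor at -0.40 and Gsk3b at -0.36, near their values by count. It put Rragd at -1.59, Inpp4b at -0.41, Ccng2 at -0.34, Eif4ebp1 at -0.35 and Tsc2 at -0.14, closer to 0 than by count. Red blood cell markers summed to 1837 to 4635 TPM in the palatal shelf and 11498 to 19406 TPM in the maxillary process, and ectoderm markers (6 of 6 higher, Cdh1 and Krt14 each listed at 0 in 1 control library) to 389 to 524 and 1.66 to 5.99 TPM. Macrophage markers summed to 21.5 to 46.4 and 8.65 to 11.48 TPM (4 of 5 called higher with edgeR). Endothelial markers summed to 170 to 196 and 121 to 131 TPM (3 of 5 called higher). Neuron and glia markers summed to 24.4 to 33.8 and 43.1 to 155 TPM (3 of the 4 tested called lower). Of the mesenchyme markers 2 were called higher and 4 lower, and of the 2 skeletal muscle markers tested 0 were called. Of the 8 hypoxia response genes 4 were called higher. The part of these lists in the member values was not tested.

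Among the PI3K genes, Pik3r1 rose from 44.5, 53.9 and 64.3 CPM in the maxillary process to 160.2, 200.4 and 161 CPM in the palatal shelf. The log2 fold change was 1.68 (SE 0.15, adjusted p 0.000245 by edgeR, higher in 3 of 3 libraries). Pik3ip1, a transmembrane inhibitor of PI3K, was higher by 1.85 (SE 0.20, adjusted p 0.000485, edgeR), from 2.24 to 2.67 CPM up to 8.10 to 10.8 CPM. Irs1, the adaptor that links insulin and IGF receptors to PI3K, was higher by 0.98 and Pik3r2 by 0.48 (adjusted p 0.00616 and 0.00493, edgeR). Pik3r3 was lower by a log2 fold change of -0.67 and Inpp4b by -0.58 (adjusted p 0.00462 and 0.0246, edgeR). Inpp4b kept its call in 6 of 13 alternatives and lost it with the replicate block, on the TPM scale and without control library 1 or 2 or wild-type library 1 or 2 (adjusted p up to 0.244). Pik3ca did not pass (-0.01, 95% interval -0.19 to 0.17).

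Of the 4 FoxO genes 3 were higher in the palatal shelf. Foxo3 had 60.9, 71.5 and 88.3 CPM in the maxillary process and 143, 118 and 141 CPM in the palatal shelf, and Foxo1 had 28.4, 28.6 and 25.6 against 67.2, 42.2 and 46.7 CPM. Their log2 fold changes were 0.87 (SE 0.15) and 0.92 (0.18), with adjusted p of 0.00255 and 0.0043 by edgeR. Foxo6, a FoxO factor known mainly from brain and craniofacial tissue, had 4, 1 and 12 counts in the control maxillary libraries and 95, 96 and 121 counts in the wild-type palatal libraries. Its log2 fold change of 3.29 (95% interval 2.03 to 4.55, adjusted p 0.00232, edgeR) rests on those few counts. Foxo6 passed the count filter through the palatal libraries, where it is high, so its call is not independent of that filter. Foxo4 did not pass, at 0.02 (-0.26 to 0.29).

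Of the FoxO targets, Txnip (1.41), the muscle ubiquitin ligase gene Fbxo32 (1.60) and the repressor gene Bcl6 (2.88) were higher in the palatal shelf and Ccng2 lower (-0.66), with adjusted p of 0.0043, 0.0022, 0.00376 and 0.00635 by edgeR. Txnip had 30.8, 24.7 and 42.04 CPM in the maxillary process and 119, 76.6 and 63.6 CPM in the palatal shelf. Bcl6 rests on 12, 6 and 46 counts against 317, 221 and 311, and it too passed the count filter through the palatal libraries. The other 6 targets, among them Cdkn1b (0.11) and Sesn3 (-0.03), did not pass.

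In the mTOR group, Rragd was the member with the largest fall. It had 34.5, 34.1 and 22.5 CPM in the maxillary process and 8.10, 9.91 and 6.65 CPM in the palatal shelf, a log2 fold change of -1.88 (SE 0.22, adjusted p 0.000578, edgeR). The values of Rragd are thus 0.90 for PI3K against wild-type, 1.33 for the libraries labelled Srsf3 cKO against control and -1.88 for wild-type palatal shelf against control maxillary process, the last sharing its libraries with the others. Ddit4 was higher in the palatal shelf by 0.78 and Rraga by 0.23 (adjusted p 0.0055 and 0.0343, edgeR), and in a fit of all 12 libraries both lost their calls (adjusted p 0.384 for Ddit4). Rraga kept its call in 4 of 13 alternatives and lost it when any 1 library was left out, with adjusted p up to 0.157. Rptor (-0.43), Mtor (-0.42), Tsc2 (-0.26) and Eif4ebp1 (-0.58) passed as lower with counts (adjusted p from 0.00468 to 0.0264, edgeR) but not on the TPM scale, where Tsc2 was at 0.02. Leaving out 1 library ended the call of Eif4ebp1 (control 1 or 2, wild-type 2 or 3), of Tsc2 (wild-type 1 or 3) and of Mtor (wild-type 1). Tsc2 overlaps Pkd1 on the opposite strand. In the AKT group Akt1s1 was higher by 0.29 and Gsk3b, the kinase that AKT inhibits, lower by a log2 fold change of -0.40 (adjusted p 0.0357 and 0.00477, edgeR), and the other 5 did not pass. Akt1s1 kept its call in 7 of 13 alternatives and lost it without any 1 control library or without wild-type library 1 or 2 (adjusted p up to 0.101).

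**Figure D5:**
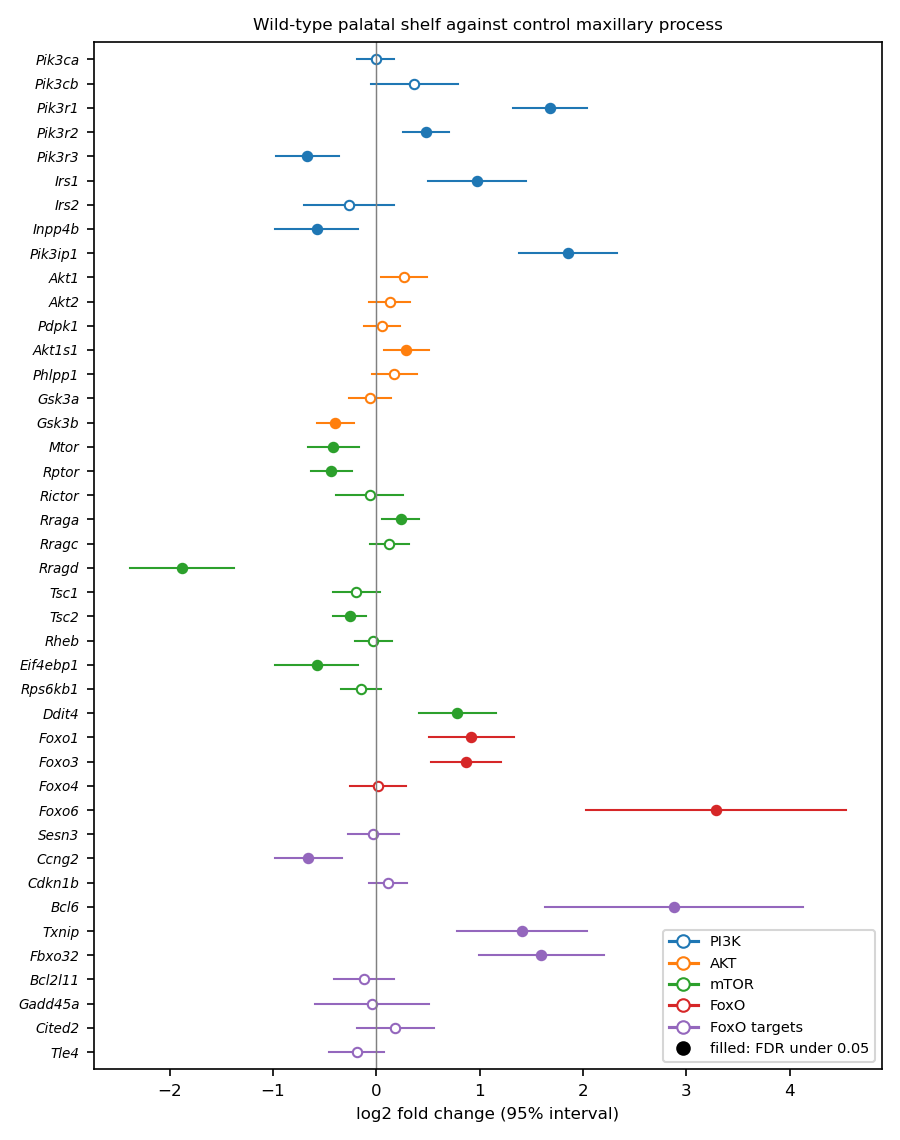
Log2 fold change (horizontal axis, positive when higher in the palatal shelf) of each member with its 95% interval, wild-type palatal shelf against control maxillary process, with filled points for members past an FDR of 0.05. The 13 higher members are led by Foxo6 (3.29) and Bcl6 (2.88), both of which passed the count filter through the palatal libraries. Among the 9 lower members Rragd lies at -1.88 and the other 8 between -0.67 and -0.26.

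Other genes of the pathway were read from lists of 19 PI3K and AKT genes, 31 mTOR genes and 17 FoxO targets. In the palatal shelf 0 of the 66 tested passed the FDR threshold with edgeR, 1 had an unadjusted p under 0.05 (2.14% of all genes) and the groups did not overlap in 2 (6.23% of all genes). That 1 was Deptor, an inhibitor of both mTOR complexes, at 10.4, 9.64 and 10.6 CPM in wild-type and 10.8, 17.8 and 16.1 CPM in PI3K libraries (log2 fold change 0.55, adjusted p 0.9997 by edgeR). The next in their lists were Gab2 (0.34), Sgk1 (-0.29), Flcn (0.22), Gabarapl1 (0.29) and Bnip3 (1.26), each with an adjusted p of 0.9997 by edgeR. Bnip3 belongs to the hypoxia response list too, and PI3K library 2 had 205 CPM of it against 21.7 to 52.2 CPM in the other libraries.

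In the maxillary process 0 of the 65 tested passed with edgeR, 9 had an unadjusted p under 0.05 (12.2% of all genes) and 14 did not overlap (18.1% of all genes), shares near the background. Prr5, a subunit of mTOR complex 2, had 7.05, 8.23 and 9.14 CPM in controls against 15.9, 13.9 and 13.6 CPM in those labelled Srsf3 cKO (log2 fold change 0.82, SE 0.16, adjusted p 0.148 by edgeR). Klf2, a FoxO target abundant in endothelium, had 7.11, 7.76 and 6.21 against 15.0, 14.4 and 11.0 CPM (0.94, SE 0.18, adjusted p 0.148 by edgeR). DESeq2 called both, with adjusted p of 0.00354 and 0.00274. The endothelial marker sums were higher in the same libraries, and their part in the Klf2 values was not tested. The adaptor gene Irs4 was at -1.90 on under 3 CPM per library, Pik3c2a at 0.15, Deptor at -0.84 and Klf4 at -1.40 (adjusted p from 0.277 to 0.481, edgeR).

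Between the tissues 29 of the 66 genes tested passed (14 higher and 15 lower in the palatal shelf), where 50.6% of all genes did (27.1% higher and 23.4% lower). They were 8 of 19 PI3K and AKT genes (5 higher, 3 lower), 16 of 31 mTOR genes (6 higher, 10 lower) and 5 of 16 FoxO targets (3 higher, 2 lower). The kinase gene Sgk1 fell from 42.3 to 47.4 CPM in the maxillary process to 21.0 to 22.8 CPM in the palatal shelf, and its relative Sgk3 rose from 4.02 to 5.94 up to 11.8 to 13.8 CPM (log2 fold changes -1.01 and 1.37, adjusted p 0.000237 and 0.00121 by edgeR). In the mTOR list the lysosomal transcription factor gene Tfeb was higher by 2.02 and the Rag gene Rragb lower by a log2 fold change of -1.05 (adjusted p 0.00393 and 0.0028 by edgeR). Of the FoxO targets, the cell cycle inhibitor Cdkn1a was higher by 3.24 and Klf4 by 1.91, and Ccnd1 lower by -0.91 (adjusted p 0.00415, 0.0206 and 0.00776 by edgeR). On the log2(TPM + 1) scale limma called these 7 genes in the same directions. It did not call several others of the 15 lower genes. Among these were Mlst8, Mios, Eif4e and Ulk1 of the mTOR list (adjusted p 0.327, 0.437, 0.250 and 0.125 by limma). Depdc5, Seh1l and Sirt1 were called lower on that scale too. Of the 14 higher genes it did not call Phlpp2 (adjusted p 0.0539 by limma).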

How the data were processed

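Poly(A) RNA from 12 libraries was sequenced. Per the submitters' processing notes the authors used STAR 2.7.0, Salmon 1.1.0 and DESeq2 1.28.1 with mm10, and they deposited gene tables of estimated counts and of TPM for each tissue. The settings, the annotation and the use of strand are not given in the sources used here. Gene IDs were matched to symbols and positions in GENCODE M21 (53355 of 53392 matched).

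From the deposited tables, estimated counts were rounded and tested with edgeR 4.0.16 (R 4.3.3): filterByExpr, TMM, quasi-likelihood F test, the 6 libraries of each comparison, no covariate, Benjamini-Hochberg adjustment over all genes tested and a threshold of 0.05. CPM are edgeR's values after TMM scaling. Effective lengths were tested with limma 3.58.1 in genes with at least 50 counts in all 6 libraries. Alternatives used DESeq2 1.42.0, limma on log2 of the deposited TPM plus 1 or 0.1, size factors by relative log expression, no filter, all 12 libraries in one fit, a replicate block and each library left out. The procedures were tested on simulated data. With 200 genes changed by a log2 fold change of at least 1 up or down, the edgeR test recovered 65.5% of them in the palatal setting. It recovered 72% and 66.5% in the maxillary and tissue settings. Smaller changes, such as most of those given above, were not simulated. Of its calls at the threshold of 0.05, 16 of 147, 13 of 157 and 11 of 144 were false, in each setting a larger share than 0.05.

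The members and lists were chosen with earlier results of these data known, and the hypoxia response list after PI3K library 2 was seen to stand apart. Full statistics are given for members past the threshold or, where none passed, for the 4 with the smallest p, and levels for any member. Where no gene of the other lists passed, the 2 with the smallest p per list are named. Between the tissues, where 29 passed, only some are named, and some unnamed genes had a smaller adjusted p than named ones.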

Additional observations from a re-analysis of the deposited data

How the results depend on the processing

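Of the values of single genes recomputed under the alternatives, 508 kept their direction and side of the threshold, 44 lost and 6 gained a call, and 4 changed sign. The palatal and maxillary values among them were of genes not called in the main test, which had no call to lose. The sign changes were Txnip in the palatal shelf without PI3K library 2 (0.25) or without wild-type library 1 (0.11), with a range of -0.57 to 0.25 over the libraries left out, and Tsc2 between the tissues on log2(TPM + 1) and log2(TPM + 0.1) (0.021 on each). Palatal genes called numbered 0 with edgeR (354 at an unadjusted p under 0.05) and 5 with DESeq2, of which 1 was a member, Rragd. Maxillary genes called numbered 12, against 356 with DESeq2, 105 with all 12 libraries in one fit, 143 without a filter, 40 with the replicate block and 2 to 29 with 1 library left out (29 when that was library 1 labelled Srsf3 cKO, 2 when it was control 2). Rragd was the 1 member called with DESeq2, with all 12 libraries and without a filter. For effective length, palatal genes called were 1, 0 with the replicate block and 0 to 1 with 1 library left out, and maxillary genes called were 1, 2 with a minimum of 20 counts, 0 with the replicate block and 0 to 5 with 1 library left out. Between the tissues 17 to 23 members and 5877 to 8473 genes were called over the alternatives, and 11 of the 22 member calls were made in all of them. The values did not settle whether the replicate numbers pair the samples. Deviations of same-numbered libraries correlated at 0.533, 0.223 and -0.220 in the palatal shelf and 0.080, 0.114 and 0.230 in the maxillary process. Between the tissues they correlated at -0.144, 0.030 and -0.017. The own number was the best match in 1, 2 and 1 of 3 pairs. The replicate block was tried only as an alternative. With 3 libraries a group, the 95% interval of a member such as Ddit4 in the palatal shelf spanned -0.15 to 2.98, and differences within such intervals were not detectable here.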
